A study of Mus musculus with 7 samples.

Results

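The genes described here are the axon guidance ligands and receptors of 4 classical families and their receptors, measured in cultured mouse hippocampal cells. They were chosen by symbol: the semaphorins (Sema3a to Sema7a), plexins, neuropilins, EphA and EphB receptors, ephrin-A and ephrin-B ligands, Slits, Robos, the netrins Ntn1 and Ntn4, and the netrin receptors Dcc, Neo1 and Unc5a to Unc5d. The symbols matched 68 of the 31053 genes in the deposited count tables. By role they were 7 secreted and 13 membrane semaphorins, 9 plexins, 2 neuropilins, 9 EphA and 5 EphB receptors, 5 ephrin-A and 3 ephrin-B ligands, 3 Slits, 4 Robos, 2 netrins and 6 netrin receptors. Hippocampi of mice taken at postnatal day 0 were dissociated with trypsin and grown on glass coated with poly-D-lysine, with no genotype, drug or other treatment given in the labels. Droplet single-cell libraries of 3′ cDNA ends were made from 1 sample at day 1 in vitro (DIV1) and from 2 each at DIV3, DIV5 and DIV7, 7 in all. The study's title concerns gene expression while synapses form. The labels do not say whether the 2 libraries of a day came from separate cultures or litters, so a p-value here reflects how far these libraries vary, and that variation may be technical.

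Guidance ligands steer growing axons and dendrites by attraction or repulsion, and many of the same molecules act again in cell migration and in the forming and pruning of synapses. Most secreted class 3 semaphorins bind a neuropilin that signals through a plexin, while membrane semaphorins bind plexins directly. Ephrins are tethered to the membrane of one cell and bind Eph receptor tyrosine kinases on its neighbour, with signalling in both directions. Slits repel through Robo receptors, and netrins attract through Dcc and repel through Unc5 receptors. In the hippocampus these families are known for layering entorhinal and mossy fibre inputs on the right stretch of dendrite.

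The libraries held 28846 cell barcodes and 386111444 unique molecular identifiers (UMIs, each a tagged RNA molecule), with 3009 to 5401 barcodes and a median of 6988 to 19595 UMIs per barcode in a library. After the cell filters (at least 500 genes and at most 10% mitochondrial UMIs) and removal of called doublets, 26532 cells were used. Cells were clustered without the guidance genes, and clusters were called "-like" a cell type from marker genes. Counts were then summed per library and class and given as CPM, each count scaled to the class total of its library. Because 1 tag is counted per molecule, values were not divided by gene length. DIV3 replicate 1 stood apart: it held 114119537 UMIs, and 93.3% of its radial glia or astrocyte-like cells lay in a cluster led by Lcn2, Isg15 and Ifit3 that nearly no other library filled. DIV7 replicate 1 also stood apart, since the mitochondrial limit removed 15.8% of its cells, against 1.00% to 5.34% in the other libraries. The labels also list endothelial cells, and their markers led 1 cluster of 45 cells, all of DIV1, together with globin genes, which was left unnamed. Pairs of libraries shared 12 to 37 barcodes, at most 0.883% of the smaller library. Calls that end when 1 library is left out are named beside the result or summarised by the range of counts.

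Glutamatergic neuron-like cells held the highest pooled level of 26 of the 68 guidance genes among 10 cell classes, more than any other class. The share of all genes that were highest in this class was not computed, so the count has no background beside it. Some leads were near ties, such as Sema4g at 27.14 CPM, against 27.12 CPM in Cajal-Retzius-like cells. The summed guidance RNA of the glutamatergic neuron-like cells was 3572 CPM over all libraries pooled, with 43 genes at 10 CPM or more and 8 at 100 CPM or more. The receptor kinases Epha5 (555.5 CPM) and Epha4 (524.5 CPM) and the secreted semaphorin Sema3c (444.1 CPM) led in those neurons. Epha4 (490.5 CPM) and Sema3c (439.9 CPM) were nearly as high in intermediate progenitor or neuroblast-like cells. GABAergic neuron-like cells followed with 2480 CPM in sum and the highest level of 9 genes, led by the receptor Epha3 at 108.7 CPM and the netrin receptors Unc5c at 75.8 CPM and Unc5d at 56.1 CPM. The sums were 1170 CPM in radial glia or astrocyte-like cells and 637.8 CPM in microglia or macrophage-like cells, the lowest of the 10. Of the 68 genes, 6 reached 10 CPM in every class and 11 in none, and 14 had a level in their highest class at least 2 times that in the next class.

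**Figure D1:**
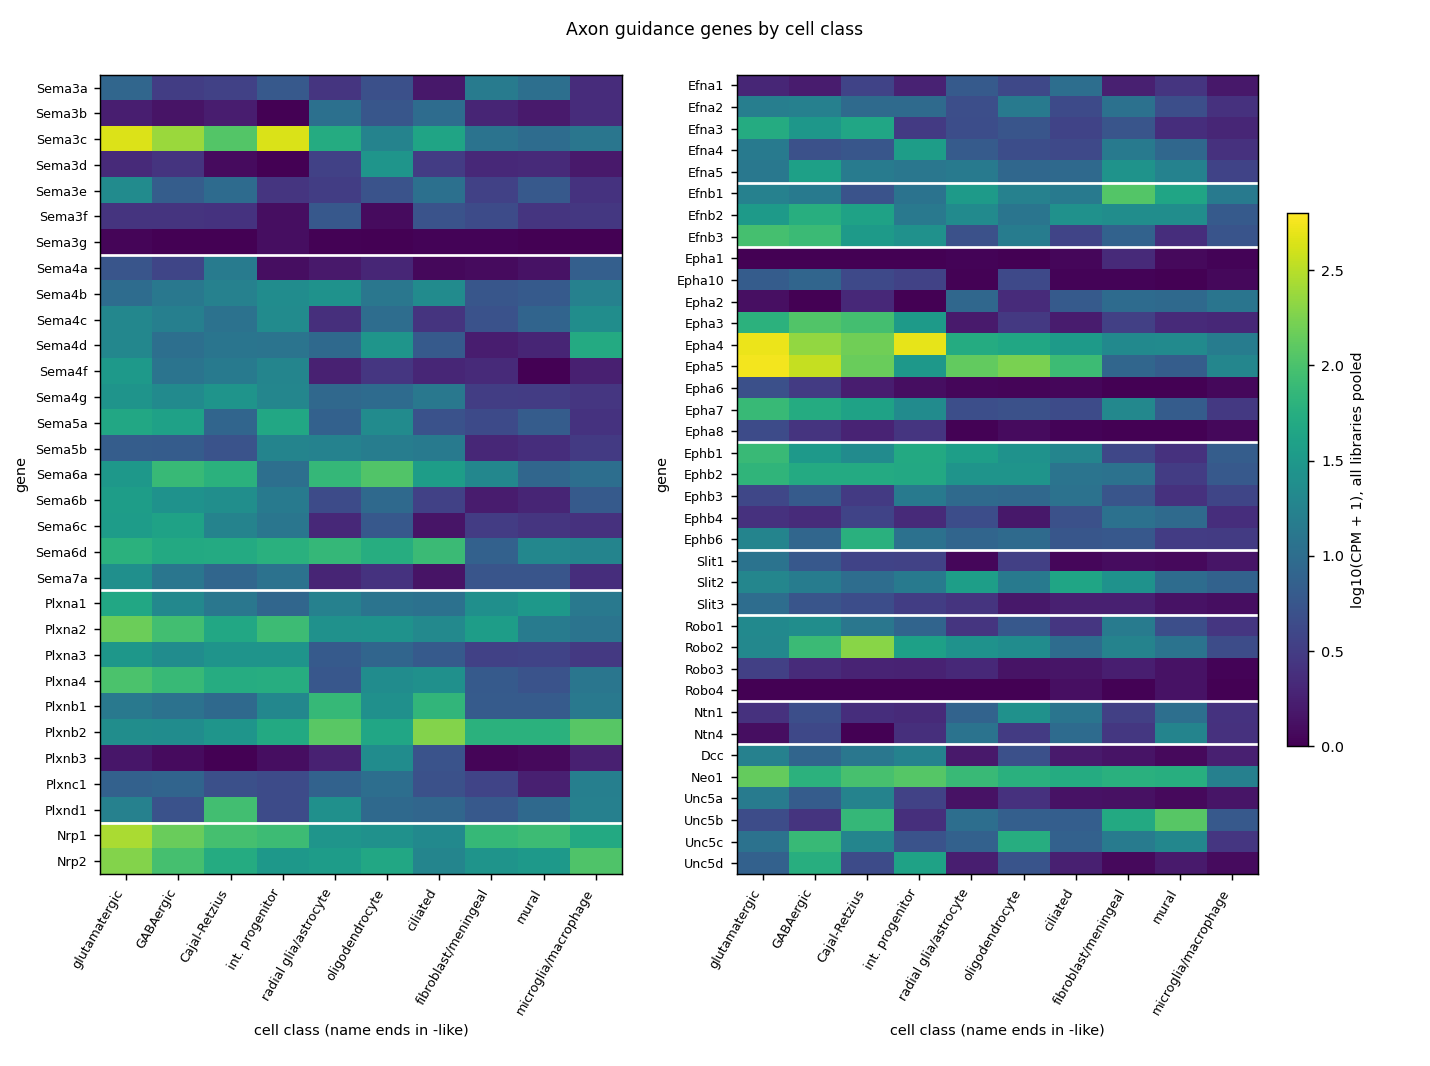
Level of each of the 68 guidance genes in 10 cell classes, as log10(CPM + 1) of counts pooled over libraries, with genes down the page grouped by role and classes across it. The glutamatergic neuron-like column is the brightest, and so highest, for Epha4, Epha5 and Sema3c, with intermediate progenitor-like cells close behind for Epha4 and Sema3c. Plxnb2, Unc5b and Efnb1 are brightest in ciliated-like, mural-like and fibroblast-like columns.

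The remaining classes each led for a few genes in the pooled counts, which mix days in a different proportion in each class. Cajal-Retzius-like cells, the early Reln neurons of the marginal zone, had 105, 304, 292 and 333 CPM of the Slit receptor Robo2 in the 4 libraries with 20 or more such cells (DIV1, both DIV5 libraries and DIV7 replicate 1). The pooled levels there were 197.8 CPM for Robo2, 87.8 CPM for the semaphorin receptor Plxnd1 and 59.6 CPM for Ephb6, a kinase-inactive Eph receptor. Intermediate progenitor or neuroblast-like cells led for 5 genes, with Efna4 at 35.6 CPM, the membrane semaphorin Sema5b at 17.5 CPM and the netrin receptor Dcc at 16.7 CPM. Another of the 5, Sema3g, was near the floor at 0.282 CPM, with 16 UMIs over the 10 classes. Of the 667 cells of this class 540 were from DIV1, where Sema5b was 24.0 CPM in radial glia or astrocyte-like cells and Dcc 23.8 CPM in glutamatergic neuron-like cells, so those pooled ranks did not hold within DIV1. Mural-like cells, the contractile cells around vessels, led for 3 genes. Their netrin receptor Unc5b was 27.4 CPM at DIV1, against 155 and 198 CPM in the DIV3 libraries and 184 CPM in DIV5 replicate 1. Of this class, 143 cells were of DIV1. With finer clusters only 4 DIV1 cells were mural-like, and 139 cells, all of DIV1, formed an unnamed cluster led by Tfpi2, Ptgds and Mmp3. The DIV1 value may thus describe other cells than the later ones. The other leading genes of mural-like cells were Ntn4, a netrin of basement membranes, at 17.3 CPM, and Robo4, a Robo of blood vessels, at 0.385 CPM. Robo4 was near the floor, with 14 UMIs over the 10 classes and 0.300 CPM in ciliated-like cells, so its rank says little. Ntn4 in radial glia or astrocyte-like cells averaged 3.62 CPM at DIV1 and 21.95 CPM at DIV7, a day with few mural-like cells. These 3 classes had 20 or more cells in 3 or 4 libraries each and were not tested.

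The neurons and the radial glia or astrocyte-like cells differed in most guidance genes. Of the 64 genes that passed the filter on low counts, 41 were higher and 17 lower in glutamatergic neuron-like cells than in radial glia or astrocyte-like cells (the glia from here on) of the same libraries (edgeR quasi-likelihood test, Benjamini-Hochberg adjusted p under 0.05 over all genes, library as a block). Of all 13099 genes tested, 70.9% were called either way (33.9% higher and 36.9% lower), so a call by itself said little, and the direction carried the difference. The median log2 fold change was 1.53 over the guidance genes tested and -0.07 over all genes. Leaving out 1 library at a time left 56 to 60 guidance genes called.

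Among receptors, 7 of the 8 EphA genes tested were higher in the neurons. Epha3 (ENSMUSG00000052504), an EphA receptor kinase, had a lowest, median and highest level of 37.0, 62.2 and 92.1 CPM in the neurons, against 0.329, 0.611 and 0.805 CPM in the glia over the 7 libraries. Every neuron library was higher than every glia library, with a log2 fold change of 6.48 ± 0.201 (SE, adjusted p = 2.31e-09). Epha4 (ENSMUSG00000026235), the EphA member that binds both ephrin classes, had 472, 512 and 562 CPM in the neurons, against 41.8, 54.6 and 71.0 CPM in the glia. Epha5 (ENSMUSG00000029245) had 275, 660.1 and 1031 CPM in the neurons, against 55.2, 140.3 and 190.1 CPM in the glia. Neither receptor's groups overlapped, with log2 fold changes of 3.15 for Epha4 and 2.19 for Epha5. Epha7 averaged 91.0 ± 39.9 CPM in the neurons and 3.88 ± 0.993 CPM in the glia (SD, n = 7 each, log2 fold change 4.34 ± 0.283). The exception in this family was Epha2, which was lower in the neurons by a log2 fold change of -4.69. EphB receptors split, with 3 higher and 2 lower of 5, and Ephb2 was higher by 1.24.

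Semaphorin receptors showed the same direction for the neuropilins and an opposite one for B-type plexins. Nrp1, the binding subunit for Sema3a, had 224, 257 and 354 CPM in the neurons, against 20.0, 27.7 and 31.5 CPM in the glia (lowest, median, highest), and its groups did not overlap (log2 fold change 3.21). Nrp2, which binds Sema3f, had 138, 199 and 238 CPM in the neurons, against 24.2, 29.9 and 62.6 CPM in the glia (log2 fold change 2.48). The signalling partners Plxna4 and Plxna2 were higher in the neurons by 4.35 ± 0.195 and 2.49. Plxnb1 and Plxnb2, receptors of class 4 semaphorins, were lower in the neurons. Plxnb2 (ENSMUSG00000036606) had 14.0, 19.9 and 25.9 CPM in the neurons, against 43.7, 133.6 and 177 CPM in the glia, a log2 fold change of -2.54 ± 0.277 with no overlap. Plxnb1 averaged 12.3 ± 1.85 CPM in the neurons and 76.3 ± 48.8 CPM in the glia (SD, n = 7 each, log2 fold change -2.40 ± 0.358, adjusted p = 0.000118). Its gap depended on the day, and at DIV1 it had 14.2 CPM in the neurons and 15.8 CPM in the glia.

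Of the Slit and netrin receptors, Robo1 was higher in the neurons by 3.64, averaging 25.1 ± 10.8 CPM there and 1.89 ± 1.03 CPM in the glia (SD, n = 7 each). Robo2 had a log2 fold change of -0.48 and did not pass the test (adjusted p = 0.298). Dcc, the attractive netrin receptor, averaged 15.2 ± 4.47 CPM in the neurons and 0.599 ± 0.459 CPM in the glia (log2 fold change 4.59). Neo1, a Dcc relative that also binds RGM proteins, was higher by 0.88, Unc5d by 2.74 and Unc5c by 0.71, so that 5 of 6 netrin receptors were higher in the neurons. The exception was Unc5b at -1.52.

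The ligands were divided more evenly. Of the 13 membrane semaphorins, 9 were higher and 3 lower in the neurons. Sema4f (32.8 ± 8.42 CPM in the neurons and 0.776 ± 0.232 CPM in the glia), Sema6c (40.2 ± 15.1 and 1.097 ± 0.658 CPM in the same order) and the GPI-anchored Sema7a (28.5 ± 10.9 and 1.01 ± 0.397 CPM) were higher by 5.27, 5.16 and 4.73. Sema6a, a ligand of Plxna2 and Plxna4, had 22.05, 30.4 and 35.9 CPM in the neurons, against 44.8, 74.2 and 125 CPM in the glia (lowest, median, highest), a log2 fold change of -1.38 ± 0.140. Sema4b was also lower, by -1.85 ± 0.261, and Sema5a was higher by 2.71. Of the secreted semaphorins, Sema3c was higher by 3.04, with 291, 387 and 655 CPM in the neurons, against 14.1, 45.6 and 110 CPM in the glia, and Sema3a was higher by 1.55. Sema3b, at -3.52, was 1 of 3 secreted semaphorins that were lower.

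Among ephrins, Efnb3 averaged 111 ± 41.3 CPM in the neurons and 4.06 ± 1.95 CPM in the glia (log2 fold change 4.69 ± 0.255), and Efna3 54.3 ± 8.99 CPM in the neurons and 3.91 ± 3.96 CPM in the glia (4.02 ± 0.335; SD, n = 7 each). Efnb2 was higher by 0.48. Efnb1 averaged 15.6 ± 1.27 CPM in the neurons and 31.6 ± 17.3 CPM in the glia (-0.97 ± 0.292, adjusted p = 0.0116). This gap was not seen at DIV7, where Efnb1 averaged 14.4 ± 1.15 CPM in the neurons and 13.1 ± 6.93 CPM in the glia (SD, n = 2 each). Efna5 did not pass the test (-0.73, adjusted p = 0.0635). Slit1 averaged 14.4 ± 9.17 CPM in the neurons and 0.129 ± 0.131 CPM in the glia, a log2 fold change of 6.68 ± 0.423, and Slit3 was higher by 2.25. Slit2 went the other way, at 19.9 ± 7.23 CPM in the neurons and 36.9 ± 22.6 CPM in the glia (-0.89 ± 0.319, adjusted p = 0.0272), but it was higher in the neurons in 2 of 7 libraries, and leaving out either DIV3 library or DIV5 replicate 1 ended the call. Both netrins were lower in the neurons, Ntn4 by -5.00 ± 0.285, with 0.315 ± 0.336 CPM there and 11.5 ± 7.73 CPM in the glia, and Ntn1 by -2.24. The markers of each class appeared at a low level in the other. The 15 radial glia or astrocyte markers summed to 405 to 2377 CPM in the neuron sums, none at 0. They summed to 6425 to 45340 CPM in their own class. In the other direction, the neuron marker Neurod6 was 0.954 to 3.37 CPM in the glial clusters, against 77.3 to 520 CPM in the neuron clusters. The part of RNA from the other class in genes such as Plxnb2 in the neurons or Epha3 in the glia was not tested.

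**Figure D2:**
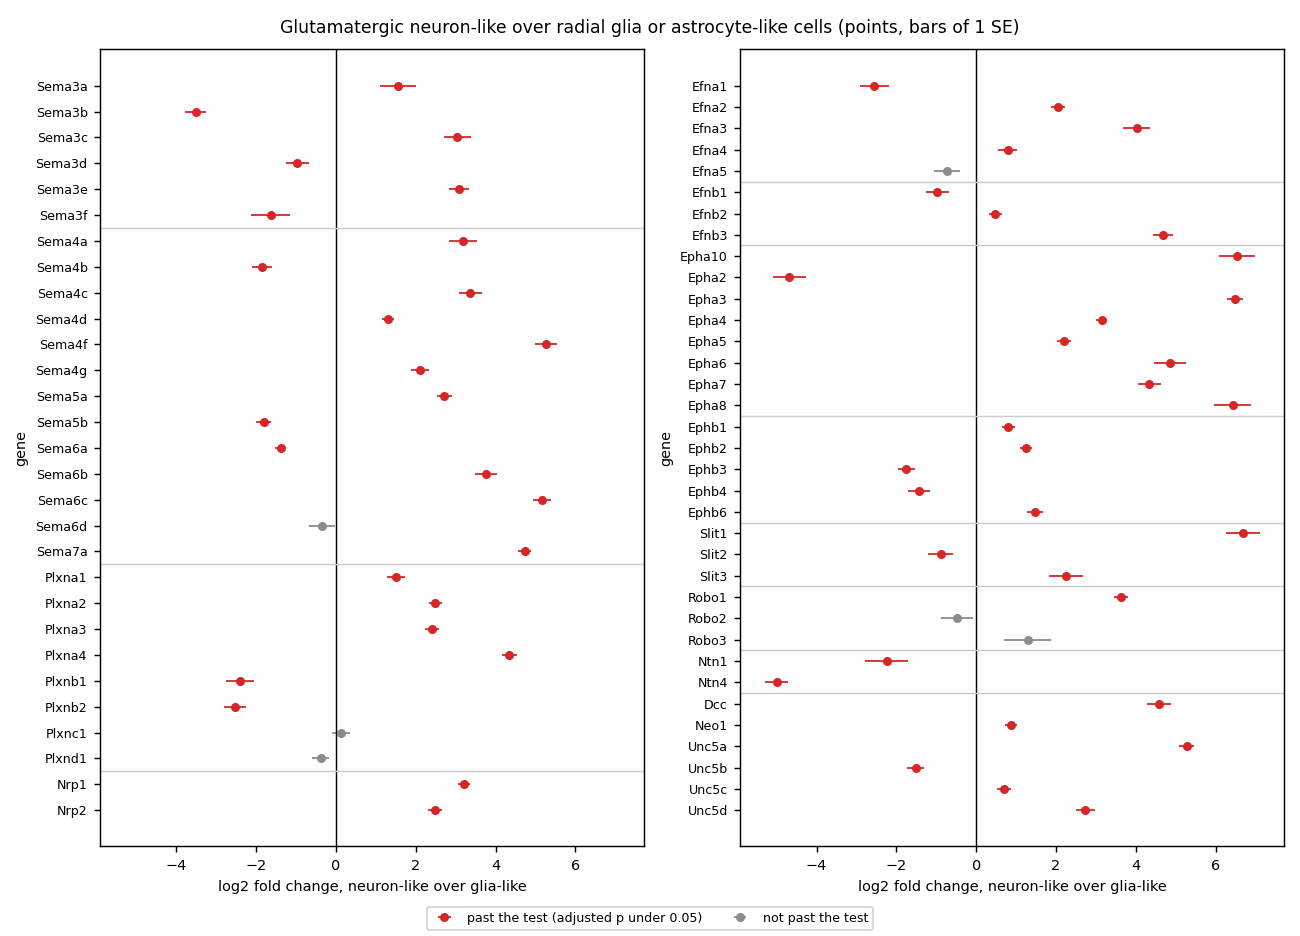
Log2 fold change of each tested guidance gene in glutamatergic neuron-like over radial glia or astrocyte-like cells of the same 7 libraries, with bars of 1 SE, grouped by role. Red points passed the test and grey points did not; Epha3 (6.48) and Slit1 (6.68) lie at the right and Ntn4 (-5.00) at the left.

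The days in vitro were then compared within glutamatergic neuron-like cells. Of 63 guidance genes tested, 8 were higher and 3 lower at DIV7 than at DIV3, or 17.5%, against 7.42% of all 13236 genes tested (5.03% higher and 2.39% lower). The genes that rose were the Slit receptors Robo2 and Robo1, the ligand Slit1, the netrin receptors Unc5a and Unc5c, the ephrin Efnb3, the receptor kinase Epha7 and the plexin Plxnc1. Those that fell were the receptor kinase Ephb1, the ephrin Efna4 and the secreted repellent Sema3a. Of these, Efna4 (-1.82 ± 0.381, adjusted p = 0.0202) and Plxnc1 (1.58 ± 0.346, adjusted p = 0.0243) stayed under 20 CPM in each library, as did Sema3a. The median log2 fold change was 0.12 over the guidance genes tested and -0.03 over all genes.

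Robo2 (ENSMUSG00000052516) had 9.86 CPM at DIV1, 7.46 and 11.7 CPM at DIV3, 28.1 and 24.0 CPM at DIV5, and 61.4 and 51.9 CPM at DIV7. Each day's libraries lay apart from those of the next from DIV3 on, with the DIV1 library inside the DIV3 range. The log2 fold change at DIV7 over DIV3 was 2.59 ± 0.284 (adjusted p = 0.00118), and the call was kept in 17 of 18 other settings. Slit1 (ENSMUSG00000025020), a repellent ligand of Robo1 and Robo2, had 3.71 CPM at DIV1, 3.81 and 7.37 CPM at DIV3, 18.7 and 19.8 CPM at DIV5, and 23.1 and 24.7 CPM at DIV7. Its DIV5 and DIV7 libraries lay above all earlier ones, and it rose by 2.13 ± 0.345 at DIV7 over DIV3 (adjusted p = 0.00722). That call was lost when either DIV7 library was left out. Robo1 had 16.3 CPM at DIV1, 10.2 and 20.5 CPM at DIV3, 29.0 and 22.6 CPM at DIV5, and 38.5 and 38.6 CPM at DIV7, with the DIV7 libraries highest (1.35 ± 0.328, adjusted p = 0.0343).

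Epha7 (ENSMUSG00000028289), whose ligands are ephrins A, had 44.9 CPM at DIV1, 48.0 and 59.1 CPM at DIV3, 121 and 100.4 CPM at DIV5, and 143 and 121 CPM at DIV7. The DIV7 libraries averaged 132 ± 15.3 CPM and the DIV3 libraries 53.5 ± 7.84 CPM (SD, n = 2 each), a rise of 1.31 ± 0.216 on the log2 scale (adjusted p = 0.00771). Efnb3 (ENSMUSG00000003934), an ephrin-B of cortical and hippocampal neurons, had 53.0 CPM at DIV1, 78.4 and 93.004 CPM at DIV3, 120.0 and 109 CPM at DIV5, and 169 and 156 CPM at DIV7. Its days did not overlap at any step, and it rose by 0.93 ± 0.197 at DIV7 over DIV3 (adjusted p = 0.0215). Unc5a averaged 28.5 ± 6.28 CPM at DIV7 and 10.7 ± 3.19 CPM at DIV3 (SD, n = 2 each), a rise of 1.40 ± 0.305 (adjusted p = 0.0239). Unc5c had 16.2 and 22.2 CPM at DIV7, against 4.60 and 7.94 CPM at DIV3 (1.61 ± 0.408, adjusted p = 0.0399). Ephb1 had 55.6 CPM at DIV1, 107 and 111 CPM at DIV3, 68.5 and 65.0 CPM at DIV5, and 43.3 and 64.6 CPM at DIV7. DIV3 was thus its highest day, and the change at DIV7 over DIV3 was -1.04 ± 0.233 (adjusted p = 0.0263). Sema3a had 12.4 CPM at DIV1, 8.25 and 8.81 CPM at DIV3, 3.89 and 3.65 CPM at DIV5, and 3.09 and 0.633 CPM at DIV7, with each later day below the one before (-1.90 ± 0.490, adjusted p = 0.0410). The level of 0.633 CPM, in DIV7 replicate 2, was near the floor.

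**Figure D3:**
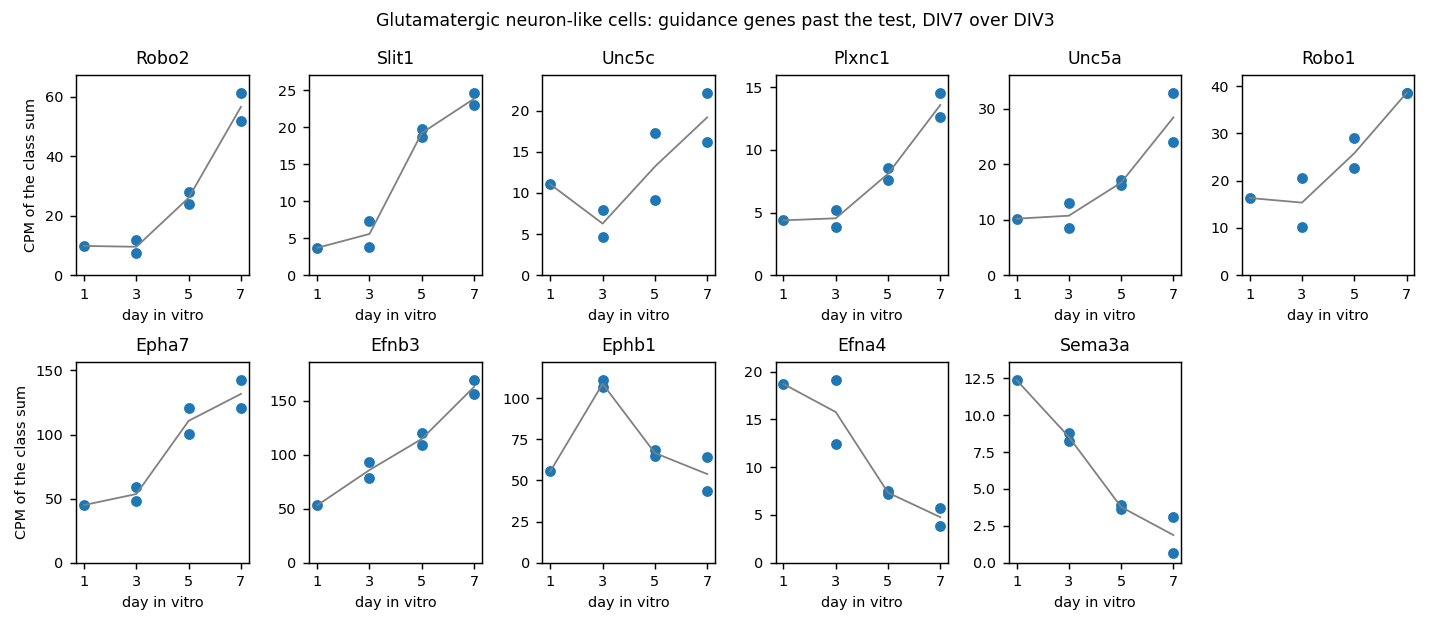
CPM of the 11 guidance genes past the test at DIV7 over DIV3 in glutamatergic neuron-like cells, by day in vitro, with 1 point per library and a line through the day means. Robo2, Slit1, Epha7 and Efnb3 are highest at DIV7, while Ephb1 is highest at DIV3 and Sema3a and Efna4 are lowest at DIV7.

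The most abundant guidance genes of these neurons did not pass the test between the same days. Epha4 had 560 CPM at DIV1, 505 and 562 CPM at DIV3, 512 and 472 CPM at DIV5, and 543 and 498 CPM at DIV7 (log2 fold change -0.03 at DIV7 over DIV3), so that all 7 libraries lay in a narrow band. Epha5 had 275 CPM at DIV1, 444 and 660.1 CPM at DIV3, 873 and 547 CPM at DIV5, and 839.6 and 1031 CPM at DIV7 (0.76, adjusted p = 0.105). Its DIV7 libraries lay above those of DIV3 and overlapped with those of DIV5. Sema3c had 346 and 367 CPM at DIV7, against 439 and 655 CPM at DIV3 (-0.62, adjusted p = 0.123). Nrp1 (-0.14), Nrp2 (0.16), Plxna2 (-0.07), Plxna4 (0.23), Sema5a (-0.14), Sema6a (0.30), Ephb2 (-0.19), Efnb1 (-0.14), Efnb2 (0.58), Slit3 (0.12), Dcc (0.15) and Unc5d (-0.28) were likewise without a call. Neo1 (0.65, adjusted p = 0.0714), Slit2 (1.07, adjusted p = 0.0811), Efna5 (-1.02, adjusted p = 0.127) and Ntn1 (-2.69, adjusted p = 0.243) were not called either, although Neo1 and Slit2 passed with the replicate block. Among the 13 membrane semaphorins and 2 neuropilins, 0 passed. Ntn4 had under 1 CPM in every library of these neurons and was not tested here.

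Calls over all genes changed widely in number with the library left out, so the same change here was not particular to the guidance genes. The number of guidance gene calls rested on single libraries and on the cells kept. It was 1 when either DIV7 library was left out, 4 when DIV3 replicate 1 was and 23 when DIV3 replicate 2 was, and adding the replicate number as a block gave 21 (16 higher and 5 lower). With at least 1000 genes and at most 5% mitochondrial UMIs per cell, 41 of 321 such neurons were left in DIV7 replicate 1 and 59 of 107 in DIV7 replicate 2, and 0 guidance genes were called by edgeR. The makeup of the class also changed with the day: 81.6% of its DIV1 cells lay in cluster 6, those of DIV3 replicate 1 were split between cluster 7 (33.7%) and the Prox1-led cluster (58.8%), and 32.3% to 49.8% of those of the other later libraries were Prox1-led. Within neurons outside the Prox1-led cluster alone, an alternative chosen after the data were seen, Robo2 rose by 2.54 and Slit1 by 2.03 at DIV7 over DIV3, both past the same test. Those cells too lay in different clusters on the 2 days: cluster 8 held 148 of 161 and 59 of 72 of them at DIV7, against 13 of 432 in DIV3 replicate 1, where cluster 7 held 353, and 200 of 371 in DIV3 replicate 2. Radial glia or astrocyte markers in these neuron sums were 405 CPM at DIV1, 577 and 1111 CPM at DIV3, 883 and 1825 CPM at DIV5, and 1193 and 2377 CPM at DIV7, and GABAergic markers 10 to 47 CPM in every library. Robo2 in the radial glia or astrocyte-like sums was 22.005 and 29.9 CPM at DIV7, below its level in the neurons of the same day. Pooled levels of several of the 11 genes were higher in another class, by 10.2 times for Robo2 in Cajal-Retzius-like cells, 7.28 times for Unc5c in GABAergic neuron-like cells, 2.69 times for Efna4 in intermediate progenitor or neuroblast-like cells and 2.38 times for Plxnc1 in microglia or macrophage-like cells. Markers of Cajal-Retzius-like cells summed to 287 and 456 CPM in the neuron sums at DIV7, against 557 and 362 CPM at DIV3. The part of RNA from other classes in these changes was not tested.

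The intermediate step gave fewer calls. At DIV5 over DIV3, 1 of 63 guidance genes was called, against 0.484% of all genes (0.423% higher and 0.0604% lower): Slit1 rose by 1.80 ± 0.332 (adjusted p = 0.0468), a call lost in 11 other settings. Robo2 (1.45, adjusted p = 0.0534) and Epha7 (1.03, adjusted p = 0.0668) did not pass. With the replicate block 8 guidance genes (6 higher and 2 lower) and 623 genes in all were called, Robo2, Epha7 and Unc5c among them. At DIV7 over DIV5, edgeR called 0% of genes and 0 guidance genes, while 678 genes and 6 guidance genes were below an unadjusted p of 0.05. DESeq2 called 4 genes and 0 guidance genes, and the replicate block gave 17 genes and 0 guidance genes.

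In radial glia or astrocyte-like cells, 4 of 60 guidance genes were higher and 1 lower at DIV7 than at DIV3, or 8.33%, against 15.1% of all genes tested (6.96% higher and 8.19% lower). The most abundant of the 5 was the one that fell, Efnb1, an ephrin-B ligand of neural progenitors. Efnb1 had 52.1 CPM at DIV1, 47.7 and 46.6 CPM at DIV3, 29.0 and 19.3 CPM at DIV5, and 17.98 and 8.18 CPM at DIV7, so that each day's libraries lay below those of the day before. Its log2 fold change at DIV7 over DIV3 was -2.02 ± 0.355 (adjusted p = 0.0236). The 4 that rose were at lower levels: Plxnb3, a plexin of oligodendrocytes (3.01 ± 0.775, adjusted p = 0.0464), Sema4g (2.21 ± 0.430, adjusted p = 0.0263), the secreted Sema3e (1.84 ± 0.449, adjusted p = 0.0407) and Robo1 (1.64 ± 0.407, adjusted p = 0.0430). Sema4g, the highest of them, had 12.9 and 19.1 CPM at DIV7, against 3.10 and 3.36 CPM at DIV3. Pooled levels of all 5 genes were higher in another class, by 26.9 times for Plxnb3 in oligodendrocyte lineage-like cells and 3.42 times for Efnb1 in fibroblast or meningeal-like cells. Robo1 was 13.2 times higher in GABAergic neuron-like cells, and Sema3e 9.44 and Sema4g 3.44 times higher in glutamatergic neuron-like cells. In the glia Plxnb3, Sema3e and Robo1 averaged only 1.78, 4.39 and 3.185 CPM at DIV7. The part of RNA from those classes in the 5 changes was not tested.

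Different clusters held most of this class on each day. Cluster 0 held 98.7% of the DIV1 cells, the Lcn2-led cluster 19 held 93.3% of those of DIV3 replicate 1, and cluster 3 held 77.2% of those of DIV3 replicate 2. Cluster 4 held 56.1% of the cells of DIV5 replicate 1 and 77.4% of those of DIV7 replicate 1, cluster 18 held 74.2% of those of DIV5 replicate 2, and cluster 25 held 62.5% of those of DIV7 replicate 2. No guidance gene was called without DIV3 replicate 1 or without DIV7 replicate 2, and 13 were called with the replicate block, with Ntn1, Ntn4 and Unc5c among those added. Calls over all genes in this class also changed widely in number with the library left out. Ciliated-cell markers in the sums of this class were 639 and 316 CPM at DIV7, against 138 and 179 CPM at DIV3. Oligodendrocyte lineage markers were 287 and 351 CPM at DIV7, against 156 and 178 CPM at DIV3. Their part in the 5 changes was not tested.

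Whether the change at DIV7 over DIV3 differed between the neurons and the glia was tested as a difference of the fold changes in 1 model. Of 65 guidance genes, 8 differed, against 6.61% of all 15394 genes. Slit2 (ENSMUSG00000031558) had 21.7 CPM at DIV1, 9.68 and 13.7 CPM at DIV3, 29.8 and 16.6 CPM at DIV5, and 27.6 and 20.3 CPM at DIV7 in the neurons. In the glia it had 18.7 CPM at DIV1, 32.8 and 71.9 CPM at DIV3, 64.7 and 21.1 CPM at DIV5, and 33.1 and 15.9 CPM at DIV7. The neurons were thus higher and the glia lower on average at DIV7, and the difference of the fold changes was 2.17 ± 0.336 (adjusted p = 0.00688, a call kept when any 1 library was left out). Robo2 differed by 2.47 ± 0.348 (2.59 in the neurons and 0.15 in the glia, adjusted p = 0.00556) and Epha7 by 1.54 ± 0.277 (1.31 in the neurons and -0.24 in the glia, adjusted p = 0.0115).

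Of the 5 other genes, 4 had the higher fold change in the glia. Plxnb1 (ENSMUSG00000053646) had 15.8 CPM at DIV1, 30.3 and 53.6 CPM at DIV3, 71.7 and 113 CPM at DIV5, and 94.2 and 156 CPM at DIV7 in the glia, against 9.04 to 14.2 CPM over all days in the neurons. Its glial levels thus went up while the neuronal ones stayed within a narrow range, with a difference of -1.67 ± 0.319 (adjusted p = 0.0140). Sema6d, a ligand of Plxna1, differed by -1.56 ± 0.321 (-0.41 in the neurons and 1.17 in the glia, adjusted p = 0.0196), Plxnb2 by -1.41 ± 0.246 (-0.84 and 0.53 in that order, adjusted p = 0.00995) and Sema4b, a class 4 semaphorin, by -1.52 ± 0.353 (-0.63 and 0.86, adjusted p = 0.0288). Efnb1 differed by 1.84 ± 0.369, at -0.14 in the neurons and -2.02 in the glia (adjusted p = 0.0170). Without DIV3 replicate 1, 69 of 15105 genes were called in all, and Slit2 alone of the 8, while the differences kept their sign, at 2.34 for Robo2, -1.53 for Plxnb2 and 1.46 for Epha7. Without DIV7 replicate 2, 173 genes were called, and Epha7 (1.44), Plxnb1 (-1.53), Efnb1 (1.39), Sema6d (-1.19) and Sema4b (-1.45) were not among them. Sema4b was also without a call when DIV7 replicate 1 was left out (-1.78).

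**Figure D4:**
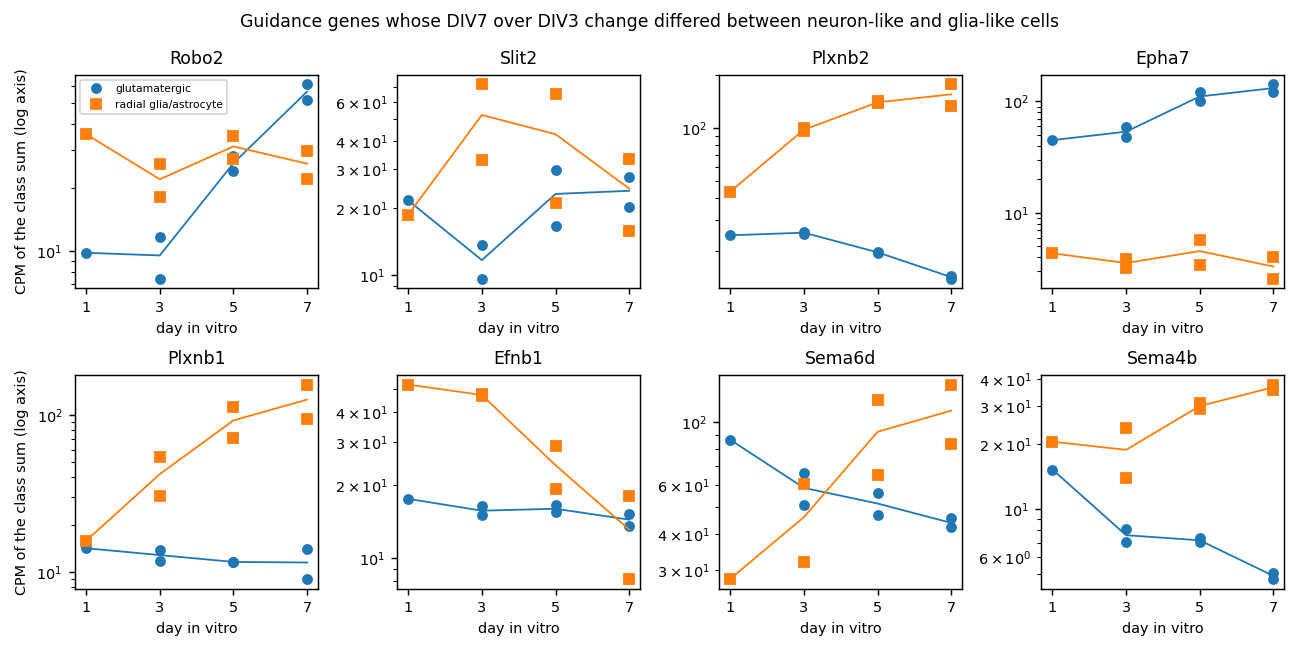
CPM on a log axis by day in vitro for the 8 guidance genes whose change at DIV7 over DIV3 differed between glutamatergic neuron-like cells (blue circles) and radial glia or astrocyte-like cells (orange squares), with 1 point per library and lines through day means. The Slit2 lines are apart at DIV3 and nearly meet at DIV7, while the glial Plxnb1 line climbs above a flat neuronal line.

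Within the glutamatergic neuron-like class, cells of a cluster led by Prox1, the transcription factor of dentate granule neurons, were compared with the other clusters of the class in the same 7 libraries. Of 50 guidance genes tested, 9 were higher and 24 lower in the Prox1-led cells, or 66%, against 47.7% of all 10112 genes (23.6% higher and 24.1% lower). The median log2 fold change was -0.29 over the guidance genes and 0.01 over all genes. The clusters were made from other genes of the same cells, and the cells of the Prox1-led cluster had a median of 0.413 times the UMIs of their library.

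The ligand with the largest rise was Sema5a (ENSMUSG00000022231), a membrane semaphorin that binds Plxna2 on granule cells. It had a lowest, median and highest level of 145, 169 and 261 CPM in the Prox1-led cells, against 6.50, 8.67 and 17.0 CPM in the other neurons. Every Prox1-led sum was far above every other sum, with a log2 fold change of 4.12 ± 0.198 (adjusted p = 6.74e-09). Its relative Sema5b averaged 17.9 ± 4.19 CPM in the Prox1-led cells and 2.44 ± 1.39 CPM in the other neurons (2.74 ± 0.247), and Slit2 30.8 ± 11.6 CPM in the Prox1-led cells and 17.8 ± 6.92 CPM in the other neurons (0.75 ± 0.165; SD, n = 7 each). Sema3a (1.104), Efna4 (0.74), Sema4d (0.70), Sema4c (0.60) and Sema6d (0.36) were also higher. The single receptor that was higher was Dcc, at 27.7 ± 9.85 CPM in the Prox1-led cells and 12.4 ± 4.95 CPM in the other neurons (0.95 ± 0.202).

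Epha5 changed most among the receptors, with 13.2, 16.6 and 32.0 CPM in the Prox1-led cells, against 304, 779.9 and 1174 CPM in the other neurons (lowest, median, highest). The groups lay far apart, with a log2 fold change of -5.24 ± 0.188 (adjusted p = 2.67e-10). Epha4, a receptor of the same family, averaged 523 ± 38.1 CPM in the Prox1-led cells and 524 ± 38.1 CPM in the other neurons (-0.01 ± 0.0784, SD, n = 7 each) and did not pass. Epha3 was lower at 14.4 ± 8.40 CPM in the Prox1-led cells and 73.4 ± 14.8 CPM in the other neurons (-2.35 ± 0.202). Of the Slit pathway, the receptors Robo2 (2.81 ± 2.28 CPM in the Prox1-led cells and 34.5 ± 27.9 CPM in the other neurons, -3.19 ± 0.282) and Robo1 (-1.61) and the ligand Slit1 (1.60 ± 1.80 CPM in the Prox1-led cells and 17.9 ± 11.4 CPM in the other neurons, -4.13 ± 0.406) were lower, as were all 3 EphB receptors tested, among them Ephb1 at -2.06 and Ephb2 at -0.49. Other genes that were lower included Plxnd1 (-2.17), Unc5c (-2.06), Efnb2 (-1.61), Efnb1 (-1.58), Plxna1 (-1.34), Sema3c (-0.81), Neo1 (-0.60) and Nrp1 (-0.34). Nrp2 (0.04), Plxna2 (0.20), Plxna4 (0.11), Efnb3 (-0.05) and Epha7 (0.49, adjusted p = 0.0518) did not pass. Leaving out 1 library at a time gave 29 to 34 calls.

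**Figure D5:**
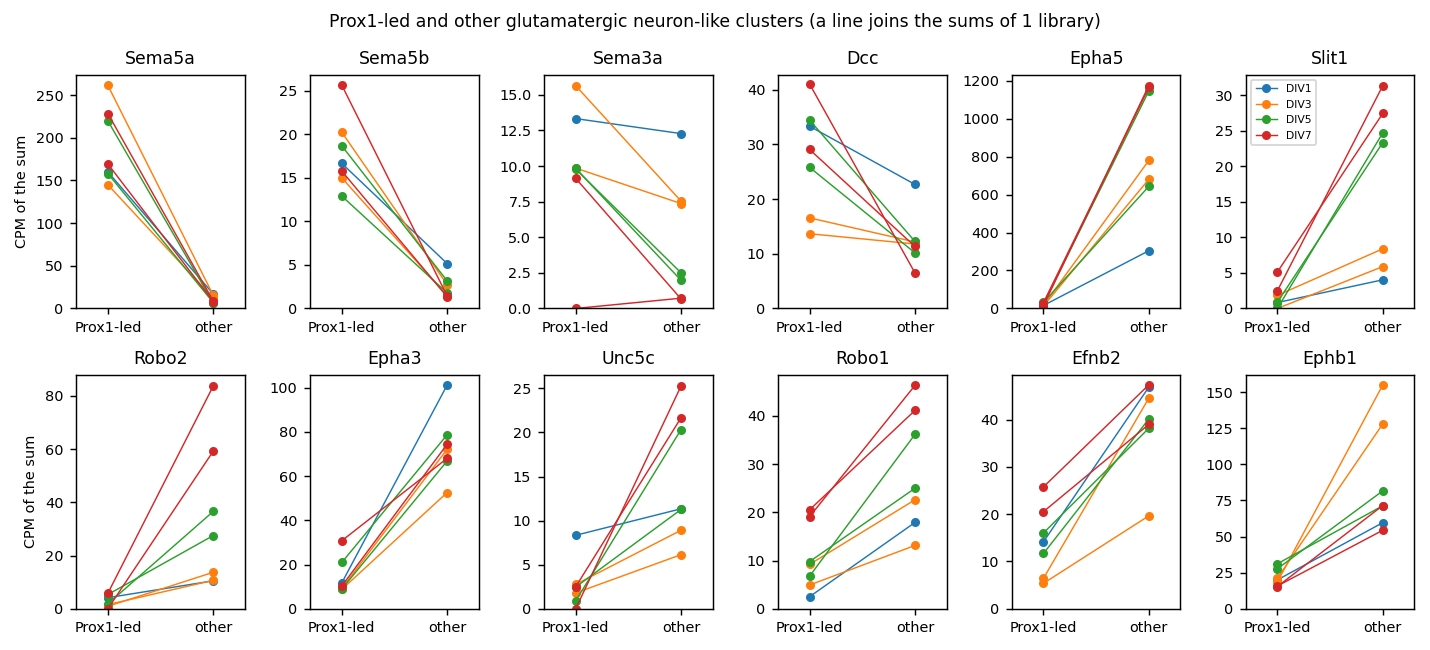
CPM of 12 guidance genes in the Prox1-led cluster (left of each panel) and in the other glutamatergic neuron-like clusters (right), where each line joins the 2 sums of 1 library and colour gives the day in vitro. Every line falls to the right for Sema5a and rises to the right for Epha5.

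The promoters of the 2 genes that were furthest apart in the Prox1-led cells, Sema5a and Epha5, and of Robo2, which had the largest rise at DIV7 over DIV3 in glutamatergic neuron-like cells, are printed to show the start regions of genes with these opposite and rising patterns. They are RefSeq sequences of build GRCm38.p6, from 250 bases before to 50 bases after the annotated start, written 5′ to 3′ on the strand of the gene, and for Robo2 the first of 3 annotated starts is shown. Capitals mark GGGCGG or its reverse complement CCGCCC, the core letters of a GC box, with overlapping matches counted. Sema5a lies on the plus strand at chr15:32244563-32244862, Epha5 on the minus strand at chr5:84417333-84417632 and Robo2 on the minus strand at chr16:75447244-75447543.
Sema5a: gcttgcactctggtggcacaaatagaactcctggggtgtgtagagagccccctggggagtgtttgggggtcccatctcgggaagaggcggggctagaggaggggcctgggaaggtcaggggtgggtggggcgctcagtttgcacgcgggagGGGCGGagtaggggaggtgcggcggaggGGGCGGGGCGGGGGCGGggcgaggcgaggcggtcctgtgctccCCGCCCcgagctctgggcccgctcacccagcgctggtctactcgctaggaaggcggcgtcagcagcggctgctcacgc
Epha5: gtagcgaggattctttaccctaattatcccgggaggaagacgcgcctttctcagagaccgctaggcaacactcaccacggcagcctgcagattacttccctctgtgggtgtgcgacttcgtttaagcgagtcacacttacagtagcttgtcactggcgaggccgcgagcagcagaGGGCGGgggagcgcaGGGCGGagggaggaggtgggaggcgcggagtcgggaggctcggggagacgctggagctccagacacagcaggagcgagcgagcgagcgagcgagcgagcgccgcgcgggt
Robo2: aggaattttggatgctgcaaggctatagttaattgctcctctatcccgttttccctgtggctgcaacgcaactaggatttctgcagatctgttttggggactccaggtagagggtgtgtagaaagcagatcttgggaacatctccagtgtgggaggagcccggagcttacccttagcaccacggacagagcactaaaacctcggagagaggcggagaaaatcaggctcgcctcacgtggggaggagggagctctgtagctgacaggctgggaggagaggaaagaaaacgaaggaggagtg

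The Sema5a window held 5 matches at a GC content of 71.3%, the Epha5 window 2 at 64.3%, and the Robo2 window none at 53.3%. Of the 68 guidance genes, 58 had an entry, and 43 of them (74.1%) held GGGCGG on either strand, against 35.9% of the windows of 27025 genes. The E-box letters CAGATG were in 4 (6.90%, against 17.2% of all), CAGCTG in 8 (13.8%, against 16.1%) and TATAAA in 2 (3.45%, against 14.2%), each searched on both strands. The median GC content was 65.0% over the guidance genes and 52.7% over all windows. A match is a run of letters in the window, not a measured site.

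Compared with glutamatergic neuron-like cells, GABAergic neuron-like cells were lower in most guidance genes tested: 7 were higher and 25 lower of 46, or 69.6%, against 22% of all 9518 genes (11.1% higher and 10.9% lower). The median log2 fold change was -0.67 over the guidance genes and -0.01 over all genes. The genes that were higher in the GABAergic cells were led by the receptors Unc5d, Unc5c and Robo2, while Unc5a, a receptor of the same family as the first of these, was lower. Unc5d (ENSMUSG00000063626) had 20.8, 57.6 and 115 CPM in the GABAergic cells, averaging 61.4 ± 32.5 CPM, against 6.08 ± 2.57 CPM in the glutamatergic cells (SD, n = 7 each, log2 fold change 3.16 ± 0.328, adjusted p = 2.82e-05). Unc5c (ENSMUSG00000059921) averaged 80.9 ± 17.1 CPM in the GABAergic cells and 12.6 ± 6.14 CPM in the glutamatergic cells (2.77 ± 0.225). The lowest GABAergic values of Unc5d and Unc5c, 20.8 and 55.2 CPM, lay above all glutamatergic ones.

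Robo2 averaged 94.1 ± 28.6 CPM in the GABAergic cells and 27.8 ± 21.3 CPM in the glutamatergic cells (2.04 ± 0.414, adjusted p = 0.0106). Efna5 (1.39), Sema6a (1.17), Epha3 (0.65) and Efnb2 (0.63) were also higher. Epha4 had 55.8, 111 and 413 CPM in the GABAergic cells (lowest, median, highest), averaging 163 ± 123 CPM, against 522 ± 34.0 CPM in the glutamatergic cells (-1.85 ± 0.288), and DIV1 was the GABAergic library at 413 CPM. Nrp1 averaged 113 ± 66.3 CPM in the GABAergic cells and 268 ± 46.2 CPM in the glutamatergic cells (-1.34 ± 0.189), and Neo1 46.5 ± 31.7 CPM in the GABAergic cells and 149.8 ± 31.0 CPM in the glutamatergic cells (-1.71 ± 0.326). Nrp2 (-1.21), Plxna2 (-1.10), Sema3c (-1.002), Epha7 (-0.82), Ephb2 (-0.76), Epha5 (-0.69), Plxna4 (-0.50) and Dcc (-1.52) were lower as well, as were Ephb1 at -1.26 and the other EphB receptor tested, so that both neuropilins and all 3 EphB receptors tested were lower. Named by their size among the remaining falls were Sema3e (-2.46), Sema4f (-1.43), Plxna1 (-1.39) and Sema7a (-1.27). The GABAergic sums came from 25 to 199 cells per library, and with the stricter cell filter 17 calls were left.

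The non-neuronal classes were set against radial glia or astrocyte-like cells of the same libraries. In fibroblast or meningeal-like cells (6 libraries), 22 of 55 guidance genes were higher and 22 lower, against 68.3% of all genes called either way (35.3% higher and 33% lower). Efnb1 averaged 120 ± 32.0 CPM in the fibroblast-like cells and 28.1 ± 16.2 CPM in the glia (2.62 ± 0.342), Unc5b 50.4 ± 7.89 CPM in the fibroblast-like cells and 8.84 ± 3.10 CPM in the glia (2.91 ± 0.162), and Nrp1 82.5 ± 19.0 CPM in the fibroblast-like cells and 27.7 ± 2.81 CPM in the glia (1.89; SD, n = 6 each). All 3 ephrin-B ligands and 4 of 5 ephrin-A ligands were higher there, and Sema3a was higher by 3.42. Epha5 was lower at 9.69 ± 6.16 CPM in the fibroblast-like cells and 144 ± 28.5 CPM in the glia (-3.82 ± 0.318), as were Plxnb1 (-3.36), Ephb1 (-3.26), Sema6d (-3.07) and Sema6a (-1.61).

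Oligodendrocyte lineage-like cells (6 libraries) had 15 of 52 guidance genes higher and 17 lower than the glia, against 43.7% of all genes (19.9% higher and 23.7% lower). Plxnb3 had 2.14 CPM at DIV1, 23.1 and 13.7 CPM at DIV3, 17.6 and 24.4 CPM at DIV5 and 51.3 CPM in DIV7 replicate 2, averaging 22.04 ± 16.4 CPM, against 0.751 ± 0.958 CPM in the glia (4.97 ± 0.395; SD, n = 6 each). Its DIV1 library stood far below the others. The secreted Sema3d averaged 31.0 ± 11.4 CPM in the oligodendrocyte lineage-like cells and 2.65 ± 1.74 CPM in the glia (3.55 ± 0.288), Unc5c 56.7 ± 16.3 CPM in the oligodendrocyte lineage-like cells and 6.79 ± 3.03 CPM in the glia (2.95), and Ntn1 26.6 ± 11.1 CPM in the oligodendrocyte lineage-like cells and 5.47 ± 3.00 CPM in the glia (2.10). Pooled over libraries, Sema6a was highest of all classes here at 108.3 CPM. Slit2 (-1.56), Sema3c (-1.53), Plxnb2 (-1.47) and Efnb1 (-1.26) were lower than in the glia.

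Microglia or macrophage-like cells had 8 of 48 guidance genes higher and 26 lower than the glia, against 62.3% of all genes (33% higher and 29.3% lower). Ciliated-like cells had 4 higher and 28 lower of 51, against 49.6% of all genes (21.6% higher and 28% lower). In the microglia-like cells the membrane semaphorins Sema4d, an immune ligand of Plxnb1 and Plxnb2, and Sema4c were higher. Sema4d had 21.9 CPM at DIV1, 16.8 and 41.4 CPM at DIV3, 46.2 and 42.6 CPM at DIV5, and 80.0 and 67.0 CPM at DIV7 in microglia-like cells, averaging 45.1 ± 22.6 CPM, against 8.52 ± 4.42 CPM in the glia (2.83; SD, n = 7 each). The makeup of the class changed with the library. With finer clusters, one led by S100a8 and S100a9 held 68 cells of DIV1, 60 of DIV3 replicate 1, and 24 and 57 of the DIV7 libraries. Another, led by Lyz2 and C1qb, held 5, 19, 102 and 233 in the same order. The part of this makeup in the Sema4d levels was not tested. Sema4c averaged 21.6 ± 8.70 CPM in the microglia-like cells and 1.44 ± 0.443 CPM in the glia (4.34 ± 0.247), and Nrp2 108 ± 24.2 CPM in the microglia-like cells and 34.1 ± 13.2 CPM in the glia (2.12). All 5 EphB receptors were lower there, while Plxnb2 was called higher (0.40) with a mean of 110.5 ± 21.1 CPM in the microglia-like cells and 118.7 ± 42.9 CPM in the glia, and its sign turned to -0.03 under total-count scaling. In the ciliated-like cells Plxnb2 averaged 179 ± 24.3 CPM, against 119 ± 42.9 CPM in the glia (0.46 ± 0.144, higher in 7 of 7 libraries), Plxna4 was higher by 1.93 ± 0.389, and Robo2 averaged 9.38 ± 2.23 CPM in the ciliated-like cells and 27.7 ± 6.51 CPM in the glia (-1.76). Scaling by total counts in place of trimmed means moved the median of all genes by -0.43 for microglia-like, -0.35 for fibroblast-like, 0.21 for ciliated-like, 0.19 for oligodendrocyte lineage-like, 0.13 for the glial day and 0.11 for the neuron over glia comparisons. Under it the counts became 5 higher and 31 lower in microglia-like cells, 17 and 25 in fibroblast-like cells, 18 and 12 in oligodendrocyte lineage-like cells, and 5 and 19 in ciliated-like cells.

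Other genes of guidance pathways, a list of 55 adhesion molecules, cytoskeletal effectors and further cues, were counted in the same comparisons. In glutamatergic neuron-like cells at DIV7 over DIV3, 5 of 54 tested rose and 2 fell, against 7.42% of all genes called either way. The calls came to 0 with the stricter cell filter, 1 when DIV7 replicate 1 was left out and 2 when DIV7 replicate 2 was. The adhesion molecule Cntn1 rose by 2.06, Nrcam by 1.17 and the netrin-like Ntng1 by 3.18, while Flrt1 (-1.11) and the planar polarity gene Vangl2 (-1.30) fell. In radial glia or astrocyte-like cells between the same days 6 rose and 2 fell of 53, a share at the background of 15.1%, and 0 were called without DIV3 replicate 1 or without DIV7 replicate 2, with Cntn1 at 3.14 and Draxin, a netrin-binding repellent, at -1.74. In the neurons over the glia 30 were higher and 15 lower of 53, against 70.9% of all genes called either way, led by the axonal adhesion molecules L1cam (7.07) and Cntn2 (6.42) and the collapsin response mediator Crmp1 (6.39), with Ntng1 at -2.09 the lowest. In the Prox1-led cells 8 were higher and 29 lower of 51 than in the other neurons, against 47.7% of all genes called either way, with Wnt5a at 3.16, and Cntn2 at -3.37 and the growth cone protein Gap43 at -2.28 among those that were lower.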

How the data were processed

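Per the file headers and values, the authors deposited unnormalised whole-number UMI counts per gene and barcode for 7 droplet libraries. Per the submitters' processing notes these came from Cell Ranger 4.0.0 on mm9, while the file headers name software version 3.0.2; the annotation is not given in the sources used here. Barcodes under 500 genes or over 10% mitochondrial UMIs were dropped. Scrublet in scanpy 1.11.5 called 178 of 28050 scored barcodes (0.635%) as doublets, against 2.41% to 4.32% expected from loading, so doublets may remain. The rest were clustered on 2000 variable genes without the guidance genes (11 of which would have entered), 30 principal components, 15 neighbours and Leiden resolution 1. Clusters were named from marker lists, with a score of at least 0.2, 1.25 times that of the next class, and at least 4 markers detected; these limits were set after the clusters were seen, and clusters that missed them stayed out of the classes, as did cycling ones. Unnamed clusters held 2.58% of cells (DIV1), 2.03% and 5.69% (the DIV3 libraries), 9.75% and 5.86% (those of DIV5) and 6.04% and 7.90% (those of DIV7), and cycling clusters 4.25% to 22.8% per library. Only clusters 0, 18 and 25 of the glial class had class markers among their 10 leading genes.

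Counts were summed per library and class with at least 20 cells, and 65 of the 68 guidance genes passed the low-count filter in at least 1 test. edgeR 4.0.16 (quasi-likelihood F test, trimmed-mean scaling, R 4.3.3) was fitted over all genes with Benjamini-Hochberg adjustment and a threshold of 0.05: a mean per day over 7 libraries for days, and a library block for pairs of classes. Fold changes are on the log2 scale. DESeq2 1.42.0, scaling, filters, doublet and clustering choices, blocks and leaving out each library were alternatives. Replicate numbers come from the titles, and deviations of same-numbered libraries from their day means correlated at 0.330 (DIV3 and DIV5), 0.149 (DIV3 and DIV7) and 0.251 (DIV5 and DIV7) over 13236 genes, so blocked counts stand beside the day results. The DIV7 over DIV3 test in glutamatergic neuron-like cells was also run on simulated counts, with the same spread for every gene and no change in cluster makeup. That run does not show how the test performs on these libraries.

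The genes and lists were chosen with earlier results of these data known. Genes named with full values were called genes that averaged 20 CPM or more in either group, up to the 8 largest changes each way, a standing list of guidance genes, and the 3 highest genes of each class they lead; others were named after their values were seen. Intervals from counting alone are not given. SD is over libraries. Each SE is the size of the log2 fold change divided by the square root of its F statistic, so it rests on the spread of all libraries in the fit. Guidance genes that share reads with a close copy were not resolved beyond the deposited counts.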

Additional observations from a re-analysis of the deposited data

Results flagged for a closer look

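In 8 guidance genes the change at DIV7 over DIV3 differed between glutamatergic neuron-like cells and radial glia or astrocyte-like cells by the test of the difference itself (edgeR quasi-likelihood test, Benjamini-Hochberg adjusted over 15394 genes). The fold change was higher in the neurons for Robo2 (by 2.47 on the log2 scale), Slit2 (by 2.17), Efnb1 (by 1.84) and Epha7 (by 1.54). It was lower in the neurons for Plxnb1 (-1.67), Sema6d (-1.56), Sema4b (-1.52) and Plxnb2 (-1.41). Without DIV3 replicate 1 the calls over all genes came to 69, against 1017 with it, and all of these but Slit2 lost their call, with differences of 2.34 for Robo2, 1.69 for Efnb1, 1.46 for Epha7, -1.53 for Plxnb2, -1.43 for Plxnb1, -1.36 for Sema6d and -1.29 for Sema4b. Epha7, Plxnb1, Efnb1, Sema6d and Sema4b also lost it without DIV7 replicate 2 (173 calls over all genes), and Sema4b without DIV7 replicate 1. Slit2 was called without each of the 7 libraries, with a difference of 1.93 to 2.43 and an adjusted p of 0.0004 to 0.0385. The groups of 1 or 2 libraries per day were too small for a test of single libraries that stand apart. The difference was not rerun with the stricter cell filter, DESeq2 or finer clusters, so whether the Slit2 call holds there is not known. Different clusters also held most of the glia at DIV3 and at DIV7, and the part of this in the differences was not tested.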

How the results depend on the processing

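Counts of called guidance genes at DIV7 over DIV3 in glutamatergic neuron-like cells were 21 with no filter on low counts, 21 with the replicate block, 0 with the stricter cell filter, and, in alternatives chosen after seeing the data, 4 in Prox1-led and 19 in other glutamatergic clusters alone. At DIV5 over DIV3 in the same cells they were 8 with no low-count filter, 8 with the replicate block, 4 with DESeq2, 2 with doublets kept, 2 in other glutamatergic clusters alone, and 0 with the stricter cell filter, with top doublet scores removed, with guidance genes among the clustering genes, with finer clusters and with libraries of both days only. At DIV7 over DIV5 the count was 1 with no low-count filter. In the glia at DIV7 over DIV3 it was 16 with no low-count filter, 13 with the replicate block, 10 with DESeq2 and 3 with libraries of both days only. GABAergic over glutamatergic cells gave 17 with the stricter cell filter, ciliated-like cells over glia 18 with that filter and 20 without the library block, and the difference between neurons and glia 16 with no low-count filter. Other alternatives stayed within 1.5 times the count given first. Calls over all genes also rose and fell when a library was left out, so the ranges below are not particular to the guidance genes.

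Leaving out each library in turn gave ranges of 1 to 23 (DIV7 over DIV3, neurons), 0 to 9 (DIV5 over DIV3), 0 to 0 (DIV7 over DIV5), 0 to 5 (glia), 56 to 60 (neurons over glia), 27 to 33 (GABAergic), 29 to 34 (Prox1-led), 42 to 45 (fibroblast-like), 26 to 32 (oligodendrocyte lineage-like), 29 to 40 (microglia-like), 24 to 33 (ciliated-like) and 1 to 15 (difference between neurons and glia). Of single genes across alternatives, 6462 values kept direction and call, 353 lost the call, 89 gained one and 4 turned: Plxnc1 at DIV7 over DIV3 in Prox1-led cells alone (-1.07), Neo1 in fibroblast-like cells over glia (0.48) and Sema6d in ciliated-like cells over glia (0.0662) with the stricter cell filter, and Plxnb2 in microglia-like cells over glia with total counts (-0.0287). The cause was not tested. Few cells limit the sums of GABAergic, Cajal-Retzius-like, intermediate progenitor-like and mural-like cells and those of neurons at DIV7.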
